A study of Mus musculus with 12 samples.

Results

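The genes described here are the glutamate receptors of the mouse and the small membrane proteins that travel with AMPA receptors. They were taken by symbol and not by any measured value: the AMPA (Gria1 to Gria4), kainate (Grik1 to Grik5), NMDA (Grin) and delta (Grid) receptor subunits, the metabotropic receptors (Grm), the gamma subunits of the Cacng family, the cornichons (Cnih1 to Cnih4) and the CKAMP proteins (Shisa6 to Shisa9). The rule found 42 of the 56860 named genes of the count table. Of these, 34 had enough counts to be tested and 8 did not. RNA-seq counts came from 12 libraries of differentiated primary oligodendrocytes (OLs), 6 treated with siEgr2 against the transcription factor Egr2 and 6 with a scrambled control, siNC, for 48 h. All cells came from C57BL/6J mice, and the methods describe a single protocol of culture and differentiation. The methods describe cells selected with O4 beads from the cortex at postnatal day 6 to 7, while the labels name the medial prefrontal cortex as the tissue. The reagent is named as an siRNA in the labels and in one passage of the methods, and as an interference plasmid in another.

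Ionotropic glutamate receptors are ion channels of 4 subunits that open when glutamate binds, and metabotropic receptors signal through G proteins. AMPA receptors that hold an edited GluA2 subunit, made from Gria2, let little calcium through, whereas those without it are permeable to calcium. Cells of the OL lineage carry AMPA and kainate receptors, and their precursors receive glutamatergic synapses from axons, which makes these genes relevant to how neuronal activity reaches the lineage. TARPs (the type I and type II gamma subunits), some cornichons and CKAMPs bind AMPA receptors and set their trafficking to the surface and the time course of their currents.

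The libraries held 28682946 to 39383014 counts in siNC and 8034251 to 16683677 in siEgr2, so that genes of few counts were measured less precisely in siEgr2. The 18S ribosomal RNA entry Rn18s-rs5 took 0.142% to 1.05% of the counts in siNC and 10.5% to 16.5% in siEgr2, and depth, this share and the treatment cannot be told apart. Counts were scaled by TMM and are given as CPM, a level relative to the scaled library total. Egr2 itself had 5.35 ± 1.27 CPM (SD, n = 6) in siNC and 3.77 ± 1.01 CPM in siEgr2, with a log2 fold change of -0.51 (SE 0.21) and an adjusted p of 0.0981 by edgeR's quasi-likelihood test, so that the knockdown did not pass the test and the ranges of the groups overlapped. The libraries carried transcripts that define OLs (Mbp with a mean of 1830 CPM in siNC) together with those of astrocytes (Gfap with 4777 CPM). In bulk RNA, fewer cells of a type and less RNA per cell cannot be told apart.

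The control libraries held a broad but uneven set of receptors. To compare genes with each other, CPM was divided by the length in kb of all annotated exons, merged over the transcripts of a gene. The order of genes depends on that length. On that scale, Cacng7, a type II TARP, had the highest mean level of the family in siNC, with 70.7 CPM per kb, followed by the type I TARP Cacng4 with 51.6, the cornichon Cnih1 with 49.8, and the kainate receptor subunits Grik3 with 39.2 and Grik5 with 28.5. After Shisa9, Cacng5 and Cnih4, the AMPA receptor subunits came in the order Gria2 (15.5 CPM per kb), Gria4 (13.2), Gria3 (10.2) and Gria1 (8.20). In CPM, without division by length, Gria3 (101) stood above Gria4 (83.1). Among the metabotropic receptors, Grm7 (7.76) and Grm5 (7.07) led. NMDA receptor subunits were lower: Grin3a stood at 2.54 CPM per kb, and Grin1, the obligatory subunit, at 0.604. Cacng2 (stargazin) and Cacng3, TARPs known from neurons, had 8 counts in 1 siNC library and no count in any library, respectively.

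**Figure D1:**
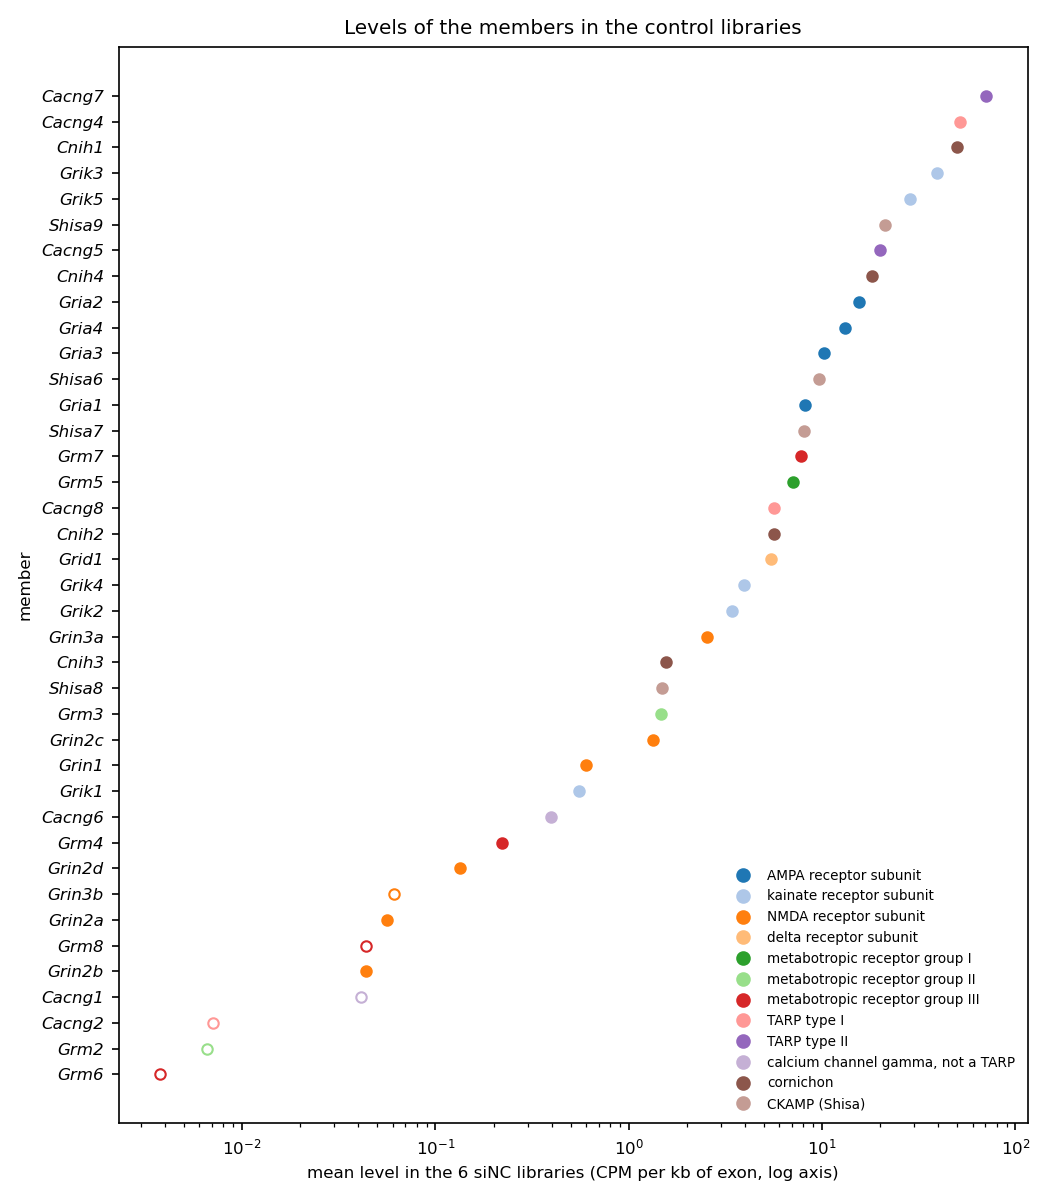
Mean level of each member in the 6 siNC libraries, in CPM per kb of exon on a log axis, colored by class, with open circles for members that were not tested with Cacng3, at 0, and members not reported here left out. Levels ran from 70.7 CPM per kb for Cacng7 to 0.00376 for Grm6, and the untested members sat at the low end.

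Across the 34 tested members, few passed both thresholds of the study (an adjusted p below 0.05 together with a log2 fold change beyond 0.5 in either direction, here "called"). In siEgr2, 2 members were called lower, Gria1 and Grm3 (5.88%), where 5.08% of all 16600 tested genes were called lower. No member was called higher by edgeR's quasi-likelihood test, by DESeq2 or by limma-voom, where 2.63% of all genes were by edgeR, and 9 members were higher at an unadjusted p under 0.05, as were 15.1% of all genes. By the adjusted p alone, 9 members passed (26.5%, against 19.9% of all genes). Of these, 6 were higher (17.6%, against 8.57%) and 3 were lower (8.82%, against 11.3%). With scaling by library size alone, which shifted the median over all genes to -0.18 (log2), 3 members were higher (against 3.04% of all genes) and 8 lower (against 32.6%) by the adjusted p. The groups did not overlap for 7 members (20.6%, against 11.2% of all genes). The median log2 fold change of the members was 0.07, and that of all genes was 0.00.

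**Figure D2:**
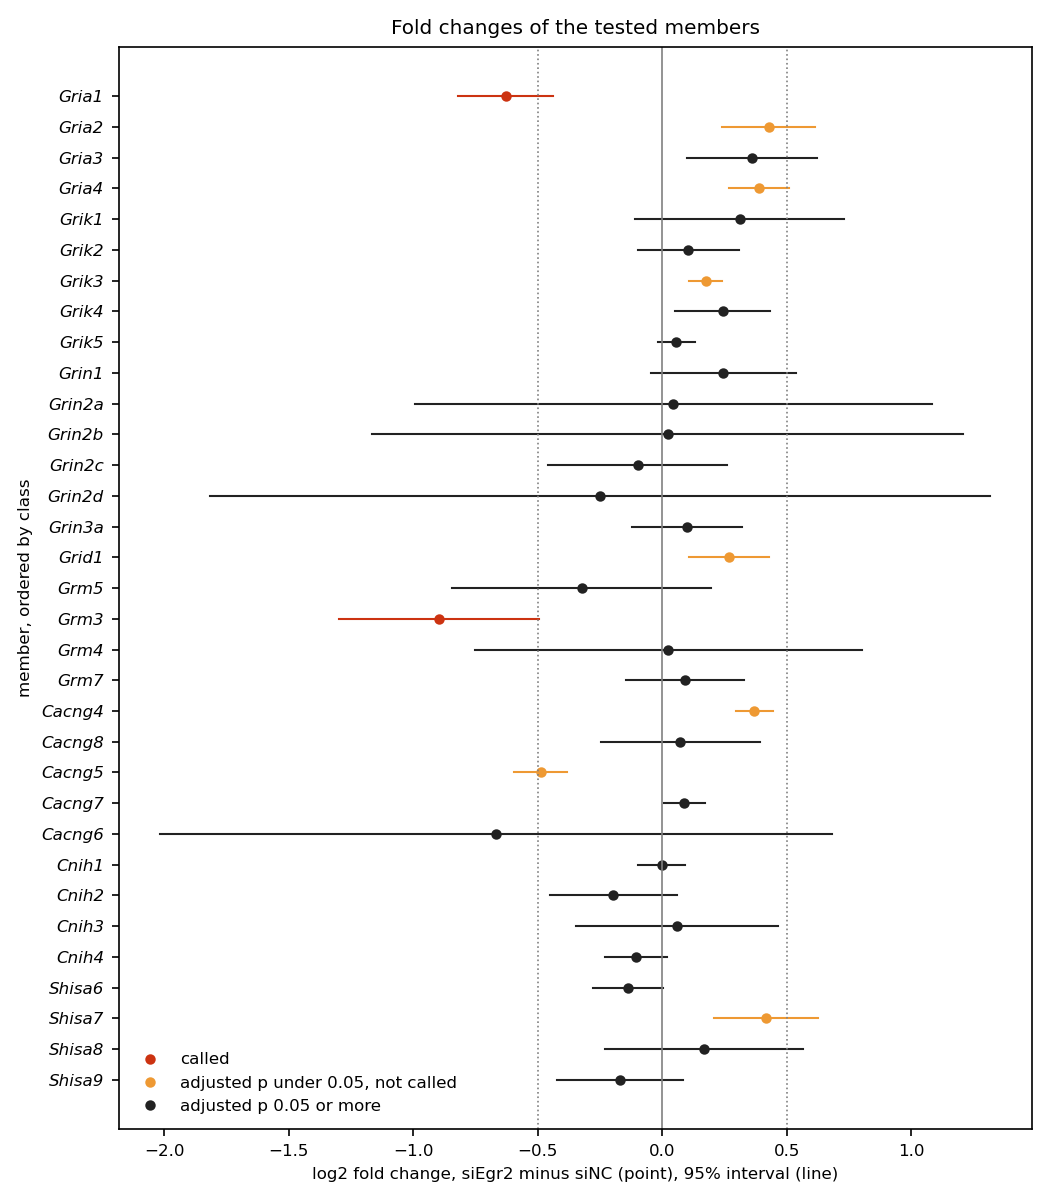
Log2 fold change of siEgr2 minus siNC (points) with the 95% interval (lines) for the tested members reported here, from the Gria genes at the top to the Shisa genes at the bottom, with dotted lines at -0.5 and 0.5. Gria1 (-0.63) and Grm3 (-0.90) lie beyond the lower dotted line with an adjusted p under 0.05, and Cacng5 (-0.49) lies just inside it.

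The AMPA receptor subunits moved in opposite directions. Gria1 encodes GluA1, a subunit that forms calcium-permeable channels when GluA2 is absent (ENSMUSG00000020524, chr11:57011387-57330244, plus strand, GRCm38). It had 42.5 to 58.3 CPM in siNC (median 46.8) and 27.1 to 37.5 CPM in siEgr2 (median 31.7). Every siEgr2 library was below every siNC library. Gria1 fell by 0.63 on the log2 scale (SE 0.090, adjusted p 0.000114).

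Gria2 encodes GluA2, the subunit that limits calcium entry once its transcript is edited (chr3:80681450-80802835, minus strand). Its level was 198 to 289 CPM in siNC (median 248) and 304 to 349 CPM in siEgr2 (median 316). The groups did not overlap, and the log2 fold change was 0.43 (SE 0.086, adjusted p 0.00300), which passed the adjusted p but stayed below the fold minimum. Gria4, which encodes GluA4 (chr9:4417896-4796234, minus strand), had 72.5 to 91.0 CPM in siNC (median 84.4) and 104 to 117 CPM in siEgr2 (median 107). It likewise showed no overlap, with a log2 fold change of 0.39 (SE 0.056, adjusted p 0.000121). With scaling by library size alone, the value was 0.24 for Gria2 (adjusted p 0.0451) and 0.21 for Gria4 (adjusted p 0.0150). Gria3, on the X chromosome, had a value of 0.36 (SE 0.12) with an adjusted p of 0.0530, and 1 siNC library (replicate 4, at 65.2 CPM) was far below the other 5 siNC libraries, which lay between 105 and 112 CPM. Without that library, the log2 fold change of Gria3 was smaller, 0.26, and passed the adjusted p (0.00810). Gria3 passed it in 6 of the 23 alternatives, among them DESeq2 and limma-voom over all 12 libraries.

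The siNC libraries 3 and 6 were the 2 lowest controls for both Gria2 and Gria4, and for 9 further members. In all, these libraries were the 2 lowest of siNC for 11 of the 34 tested members (32.4%) and for 10.7% of all tested genes, and they also had the highest 18S shares of siNC. Their part in the results was not tested beyond leaving them out. Without both, the log2 fold change was 0.31 for Gria2 (adjusted p 0.00177) and 0.32 for Gria4 (adjusted p 0.000602), and Gria1 stood at -0.67 (adjusted p 0.000530), all by edgeR.

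The make-up of the AMPA receptor transcripts differed accordingly. Per kb of exon, Gria1 held 14.8% to 19.01% of the summed AMPA subunit level in the siNC libraries and 8.29% to 10.3% in siEgr2. The share of Gria2 was 29.6% to 36.2% in siNC and 35.8% to 38.8% in siEgr2, and these ranges overlapped. Without division by length, Gria1 held 8.63% to 11.4% in siNC and 4.74% to 5.94% in siEgr2. On that scale Gria2 held 46.6% to 55.4% and 53.2% to 56.9%, again with overlap. The ratio of Gria1 to Gria2 per kb ran from 0.410 to 0.606 in siNC and from 0.222 to 0.284 in siEgr2. These ratios are taken within each library, so they do not depend on the scaling between libraries. The summed level of the 4 subunits was 423 to 533 CPM in siNC and 553 to 636 CPM in siEgr2, while with scaling by library size alone the ranges overlapped, at 448 to 573 and 528 to 616 CPM.

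**Figure D3:**
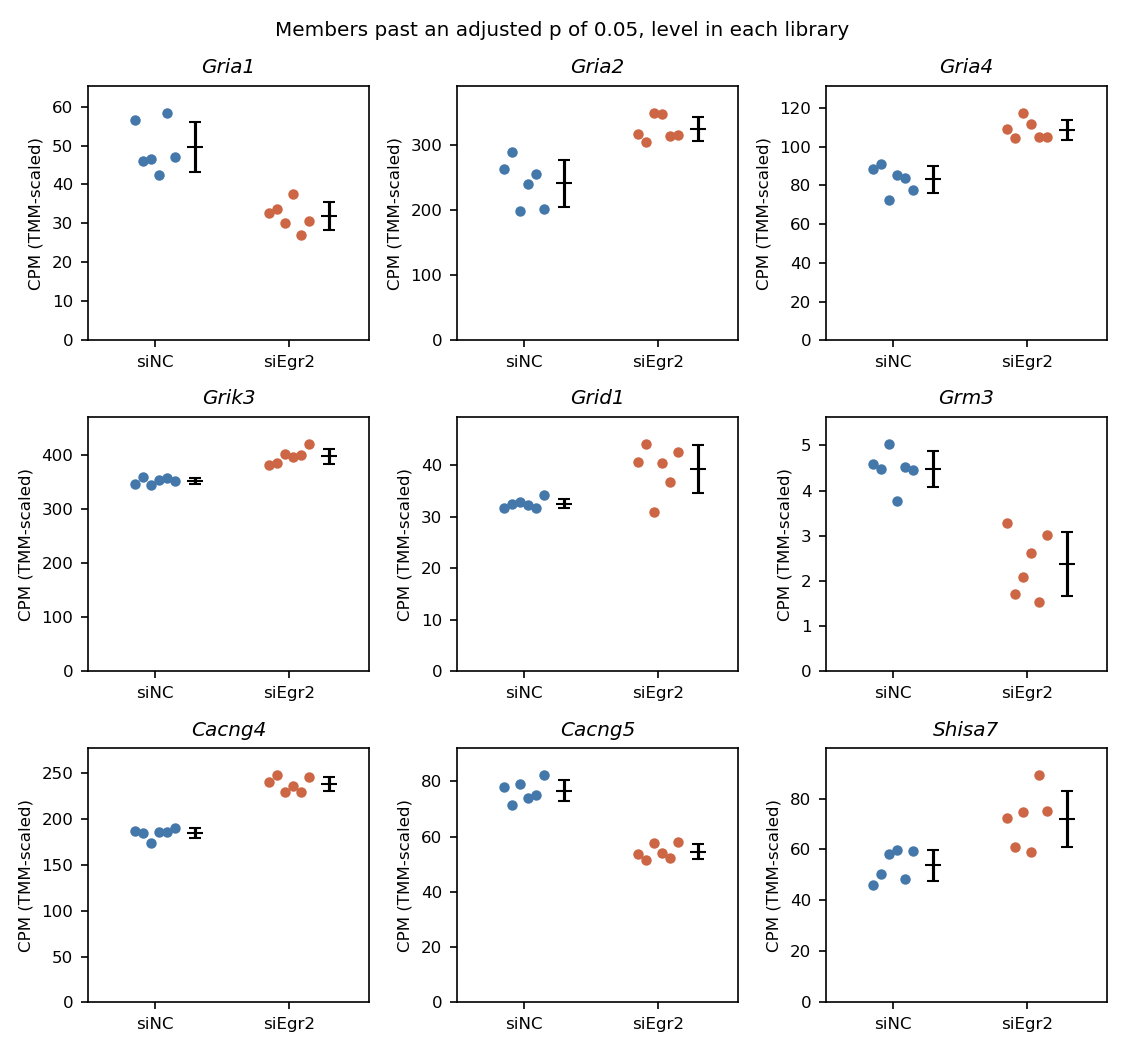
Level in each library, in TMM-scaled CPM on axes that start at 0, of the 9 members past an adjusted p of 0.05, with 6 siNC and 6 siEgr2 libraries per panel and the mean ± SD beside them in black. Gria1, Grm3 and Cacng5 are lower in siEgr2 and the other 6 are higher (Grik3 not with scaling by library size alone), and the groups overlap only for Grid1 and Shisa7.

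Of the 5 kainate receptor subunits, only Grik3 passed the adjusted p with TMM scaling and edgeR over all 12 libraries. Grik3, which encodes GluK3, was the most abundant member of its class, at 343 to 358 CPM in siNC (median 353) and 381 to 420 CPM in siEgr2 (median 397). The groups did not overlap, but the log2 fold change was only 0.17 (SE 0.031, adjusted p 0.000642), and with scaling by library size alone it was -0.01 (adjusted p 0.880). Grik5, an auxiliary kainate subunit that needs a partner to form channels, had 28.5 CPM per kb in siNC where Grik3 had 39.2, with a log2 fold change of 0.06 and a 95% interval from -0.02 to 0.13, and with scaling by library size alone it was -0.13 (adjusted p 0.0297). Grik4 had a value of 0.24 (adjusted p 0.0685), and it passed the adjusted p with DESeq2 (0.0382) and without siEgr2 replicate 6 (0.0183). Grik1 had a value of 0.31 (adjusted p 0.302) and Grik2 of 0.10 (adjusted p 0.495), and the latter turned to -0.03 without siNC libraries 3 and 6.

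No NMDA receptor subunit passed the test. Of 7 subunits, 6 were tested, with adjusted p values from 0.239 to 0.986 by edgeR. Grin3a, which encodes a glycine-binding subunit with low calcium permeability, was the most abundant of them, at 27.97 to 36.1 CPM in siNC (median 31.2) and 24.7 to 40.5 CPM in siEgr2 (median 34.6). Its log2 fold change was 0.10, with an interval from -0.12 to 0.32. Grin1 had 5.85 CPM in siNC and a value of 0.25 (interval -0.05 to 0.54). Of the GluN2 subunits, which bind glutamate, Grin2c had 6.76 CPM in siNC and a value of -0.10 (interval -0.46 to 0.26). Grin2a, Grin2b and Grin2d each had a mean of at most 1.09 CPM in siNC and their intervals ran from -0.99 to 1.08, from -1.17 to 1.21 and from -1.82 to 1.32. Those intervals are wide and include differences in either direction. The libraries held 9 to 71 counts of these genes each in siNC and 0 to 26 in siEgr2.

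The delta receptor subunits, which bind cerebellins or related C1q proteins rather than glutamate, include Grid1. It had 31.7 to 34.3 CPM in siNC (median 32.4) and 31.0 to 44.1 CPM in siEgr2 (median 40.6). A single siEgr2 library, replicate 3, lay below all controls, and the other 5 lay above them. The log2 fold change was 0.27 (SE 0.075, adjusted p 0.0183), and the adjusted p was lost with scaling by library size alone (0.08, adjusted p 0.383) and with no filter on low counts (0.22, adjusted p 0.0528).

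Among the metabotropic receptors, Grm3 showed the largest difference of all tested members by absolute log2 fold change. Grm3 encodes mGluR3, a group II receptor that lowers cAMP and is known from astrocytes and neurons (ENSMUSG00000003974, chr5:9485541-9725170, minus strand). It had 3.78 to 5.03 CPM in siNC (median 4.50) and 1.54 to 3.29 CPM in siEgr2 (median 2.36). Behind these levels stood between 129 and 186 counts in each control and between 12 and 49 in each siEgr2 library. The groups did not overlap, and Grm3 fell by 0.90 on the log2 scale (SE 0.19, adjusted p 0.00285), with an interval from -1.30 to -0.49.

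Grm5, the group I receptor that couples to calcium release, was uneven among the controls, at 121 CPM in siNC replicate 1, 92.9 CPM in replicate 3 and 52.4 to 57.8 CPM in the other 4, with a median of 57.0 CPM over the 6. The siEgr2 libraries lay between 42.5 and 72.4 CPM (median 59.2), so that the median was higher in siEgr2 although the mean was lower. The log2 fold change of -0.32 had an adjusted p of 0.386, and without siNC replicate 1 it was -0.11 (adjusted p 0.718). Grm7, a group III receptor found at presynaptic sites in neurons, was at 37.6 to 54.0 CPM in siNC (median 46.5) and 41.4 to 62.9 CPM in siEgr2 (median 46.3), with a value of 0.09 (adjusted p 0.626) that turned to -0.03 without siNC libraries 3 and 6. Grm4 was tested at a mean of 1.33 CPM in siNC, and its interval ran from -0.75 to 0.80.

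The 8 members that were not tested had few or no counts. Over the 6 libraries of a group, Grm8 had 90 counts in siNC and 6 in siEgr2, and Grin3b had 44 and 14. The controls had been read more deeply, so these sums are not a comparison of levels. Cacng1 had 10 and 2 counts, Cacng2 8 and 0, Grm2 7 and 0, Grm6 4 and 0, and Cacng3 had none. With the filter left out, none of the 7 with a count passed the adjusted p, and Grm8 came nearest (adjusted p 0.0960 by edgeR).

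Among the TARPs, a type I and a type II member on the same stretch of chromosome 11 differed in direction. Cacng4 (chr11:107732357-107794557) and Cacng5 (chr11:107874605-107915055) are both on the minus strand, 80.0 kb apart. Cacng4 encodes TARP gamma-4, a type I protein that slows the closing of AMPA receptors. It had 174 to 190 CPM in siNC (median 186) and 229 to 248 CPM in siEgr2 (median 238), without overlap. Its log2 fold change was 0.37 (SE 0.035) with the smallest adjusted p of all members, 1.70e-06, and it passed the adjusted p in all 23 alternatives, with 0.19 as the value with scaling by library size alone.

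Cacng5 encodes TARP gamma-5, a type II protein that acts on AMPA receptors in a subunit-dependent way. It had 71.6 to 82.2 CPM in siNC (median 76.4) and 51.6 to 58.1 CPM in siEgr2 (median 53.9), again without overlap. The log2 fold change was -0.49 (SE 0.051, adjusted p 4.28e-06), just inside the fold minimum, and 5 of the 23 alternatives called it lower. Within each library, the ratio of Cacng5 to Cacng4 per kb was 0.362 to 0.425 in siNC and 0.194 to 0.235 in siEgr2. Cacng7, on chromosome 7 and the highest TARP per kb of exon though not in CPM, had 166 to 181 CPM in siNC (median 171) and 176 to 201 CPM in siEgr2 (median 180), with a value of 0.09 and an adjusted p of 0.125. Cacng8, its neighbor on chromosome 7, stood at 0.07 (adjusted p 0.791). Cacng6, which encodes a calcium channel subunit that is not a TARP and lies beside Cacng8, had a value of -0.67 from 161 counts in siNC and 38 in siEgr2, with an interval from -2.02 to 0.68.

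**Figure D4:**
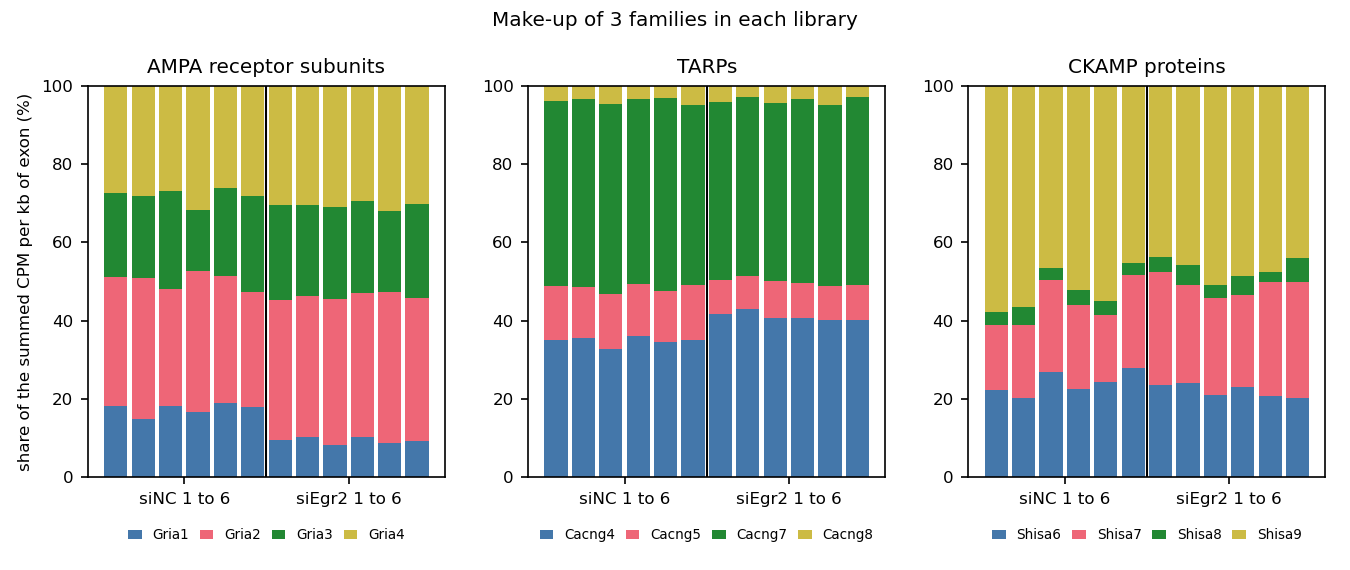
Share of each gene in the summed CPM per kb of exon of its family, in percent, with 1 bar per library, siNC left and siEgr2 right of the black line, for the AMPA receptor subunits, the expressed TARPs and the CKAMP proteins. Gria1 holds 14.8% to 19.01% of its family in siNC and 8.29% to 10.3% in siEgr2, and Cacng5 holds 12.9% to 14.1% and 8.37% to 9.53%.

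The cornichons, a family that helps cargo proteins leave the endoplasmic reticulum, gave no difference past the test with TMM scaling. Cnih1 had 78.3 to 83.1 CPM in siNC (median 81.6) and 77.0 to 86.2 CPM in siEgr2 (median 79.2), and the interval of its log2 fold change was narrow, from -0.10 to 0.09. Cnih4 had a value of -0.11 (interval -0.23 to 0.02). Cnih2 and Cnih3, the members known to bind AMPA receptors in neurons, had values of -0.20 (interval -0.45 to 0.06) and 0.06 (interval -0.35 to 0.47) at 7.68 and 4.28 CPM in siNC, and Cnih3 turned to -0.09 without siNC libraries 3 and 6. With scaling by library size alone, Cnih1 (-0.18, adjusted p 0.00784), Cnih2 (-0.38, adjusted p 0.0195) and Cnih4 (-0.29, adjusted p 0.000681) were lower by the adjusted p, and Cnih3 stood at -0.12 (adjusted p 0.663).

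Of the 4 CKAMP proteins, Shisa7 passed the adjusted p. Shisa7, which has been linked to both AMPA and GABA-A receptors, had 46.1 to 59.9 CPM in siNC (median 54.5) and 59.0 to 89.1 CPM in siEgr2 (median 73.6). The groups overlapped narrowly, and the log2 fold change was 0.42 (SE 0.099, adjusted p 0.00711). With scaling by library size alone it was 0.24, with an adjusted p of 0.0990. Shisa9 (CKAMP44) was the most abundant of the family, at 89.6 to 128 CPM in siNC (median 119) and 86.6 to 122 CPM in siEgr2 (median 91.9), with a value of -0.17 (adjusted p 0.351). Its 2 lowest siNC libraries were again replicates 3 and 6, and without both the value was -0.30 (adjusted p 0.0549 by edgeR). Shisa8 stood at 0.17 (adjusted p 0.587), which became 0.02 without the same libraries. Shisa6 stood at -0.14 (adjusted p 0.167). It passed the adjusted p without siNC replicate 2 and with scaling by library size alone (-0.32, adjusted p 0.00291).

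Egr proteins bind GC-rich elements in DNA, so the promoters of the members were read for 2 forms of the element, GCGTGGGCG and GCGGGGGCG, on both strands, in windows from 250 bases before to 50 after each RefSeq start (GRCm38.p6). The table held 31 promoters of 27 of the 42 members, Gria1 not among them. The first form was in 0.612% of all 32851 promoters and in none of the 31, and the second was in 2.91% of all promoters and in 2 of the 31 (6.45%). Grm3, which fell, and Grin1, which did not pass the test, held the second form. The stretches below run from 100 bases before to 20 after the start, on the minus strand of chr5:9725333-9725452 for Grm3, chr2:25319168-25319287 for Grin1, chr11:107915036-107915155 for Cacng5 and chr3:80802816-80802935 for Gria2. They show the match where there is one, in capitals, beside the promoters of a gene that was lower and a gene that was higher by the adjusted p.
Grm3: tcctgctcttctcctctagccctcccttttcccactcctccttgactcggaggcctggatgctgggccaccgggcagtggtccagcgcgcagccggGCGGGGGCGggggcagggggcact
Grin1: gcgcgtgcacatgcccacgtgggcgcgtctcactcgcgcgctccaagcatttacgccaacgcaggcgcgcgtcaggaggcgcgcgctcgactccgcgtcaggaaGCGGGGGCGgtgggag
Cacng5: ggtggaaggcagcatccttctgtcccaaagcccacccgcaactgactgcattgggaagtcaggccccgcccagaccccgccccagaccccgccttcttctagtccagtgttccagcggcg
Gria2: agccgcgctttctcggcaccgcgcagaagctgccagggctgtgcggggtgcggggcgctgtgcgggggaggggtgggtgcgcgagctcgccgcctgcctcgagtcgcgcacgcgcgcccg
In Grm3 the match begins 4 bases before the RefSeq start, which lies upstream of the GENCODE gene, and in Grin1 it begins 4 bases after it. A match is a description of the letters, and these data hold no measure of binding at either place. The member promoters were richer in G and C (median 62.0%) than all promoters (median 52.7%).

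Other genes of glutamate signaling were read from fixed lists. Fold changes and calls of list genes, here and below, are with TMM scaling. Scaling by library size alone shifted the median over all genes to -0.18 (log2), so higher calls near the fold minimum depend on the scaling. Among 26 further partners of AMPA and kainate receptors, 23 were tested, 4 were called higher and 1 lower. Neto1, an auxiliary subunit of kainate receptors, rose from 79.5 to 125 CPM (log2 fold change 0.65, adjusted p 1.47e-06). The synaptic adhesion proteins Lrrtm2 (0.66, adjusted p 0.0266), Lrrtm3 (0.57, adjusted p 0.000127) and Lrrtm4 (0.92, adjusted p 0.0192) also rose. Nptx2, a secreted pentraxin that clusters AMPA receptors, fell by 1.01 on the log2 scale (adjusted p 0.00297). Of 23 tested genes for postsynaptic scaffolds and receptor trafficking, none was called, and 4 passed the adjusted p, 3 of them higher. The RNA editing enzymes Adar (0.08, adjusted p 0.445) and Adarb1 (-0.04, adjusted p 0.777), the latter being the enzyme that edits Gria2 transcripts, did not pass. The related gene Adarb2, not known to edit RNA itself, was called higher at 1.82 CPM in siNC (0.65, adjusted p 0.0410). Editing was not measured.

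Several genes that clear and convert glutamate were lower. Of 10 tested genes for glutamate and glutamine transport, 3 were called lower and none higher, and 7 were lower and 2 higher by the adjusted p. The glutamate uptake transporters Slc1a3 (GLAST) and Slc1a2 (GLT-1) fell by 0.85 and 0.61 on the log2 scale, with adjusted p values of 4.66e-10 and 1.31e-07. The uptake transporter Slc1a1 went the other way, from a mean of 318 to 360 CPM (0.18, adjusted p 0.0294). The cystine and glutamate exchanger Slc7a11 fell by 1.13 (adjusted p 8.99e-07). Of 16 tested genes for glutamate and D-serine metabolism, Glul, which makes glutamine from glutamate, was the 1 gene called, and it fell by 0.61 (adjusted p 1.04e-08). The vesicular glutamate transporters Slc17a6, Slc17a7 and Slc17a8 were not tested, with means of at most 0.314 CPM in either group.

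Markers of other cells moved with the treatment. Of 14 astrocyte markers, 11 were lower by the adjusted p and 6 were called lower: Gfap (-0.56), Aqp4 (-0.80), Aldh1l1 (-0.74), S1pr1 (-0.81), Slc4a4 (-0.68) and Mlc1 (-0.79). Their summed level was 7959 to 8665 CPM in siNC and 5134 to 5845 CPM in siEgr2, and none of them was at 0. Grm3, Slc1a2, Slc1a3 and Glul, which astrocytes also express, moved in the same direction, and the part of the astrocyte transcripts in those results was not tested. Of 12 genes listed as OL precursor markers, 9 were higher by the adjusted p, and Pdgfra (0.56) and Cspg4 (0.56) were called. The list is not confined to precursors, as Sox10, Olig1 and Olig2 (605, 1214 and 635 CPM in siNC) also mark later OLs. The summed level of the 12 listed genes was 5552 to 5906 CPM in siNC and 6842 to 6989 CPM in siEgr2, with none at 0. These sums are with TMM scaling, and with scaling by library size alone the ranges overlapped. Gria2, Gria4 and Cacng4 were higher in the same libraries, and the part of the precursor transcripts in those values was not tested.

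Of 14 markers of myelinating OLs, 5 were lower by the adjusted p and none was called, and the sum was 8390 to 9563 CPM in siNC and 7866 to 8209 CPM in siEgr2. Mbp (-0.28, adjusted p 0.000228) was among the 5. Of 9 tested markers of newly formed OLs, 1 was higher and 1 lower by the adjusted p, and none was called. The sum of the 16 neuron markers overlapped between the groups, at 463 to 723 CPM in siNC and 455 to 693 CPM in siEgr2, with Stmn2 (-0.91) and Camk2a (-0.86) called lower. Map2 alone had a mean of 308 CPM in siNC. Of the 13 tested, 1 was higher and 3 were lower by the adjusted p. Neurod6 was at 0 in all libraries, and Slc32a1 and Nefh were below 1 CPM in each. Microglia markers summed to 28.3 to 35.7 CPM in siNC and 24.5 to 36.1 CPM in siEgr2, with Aif1 and Itgam at 0 in all libraries. Endothelial markers summed to 28.8 to 37.0 CPM and 28.8 to 39.1 CPM, with Cldn5 at 0 and Flt1 called lower (-1.35). Fibroblast and pericyte markers summed to 1040 to 1582 CPM in siNC and 1154 to 1371 CPM in siEgr2, with Pdgfrb (-0.56) and Rgs5 (-0.78) called lower and Cspg4, which is on both lists, called higher.

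**Figure D5:**
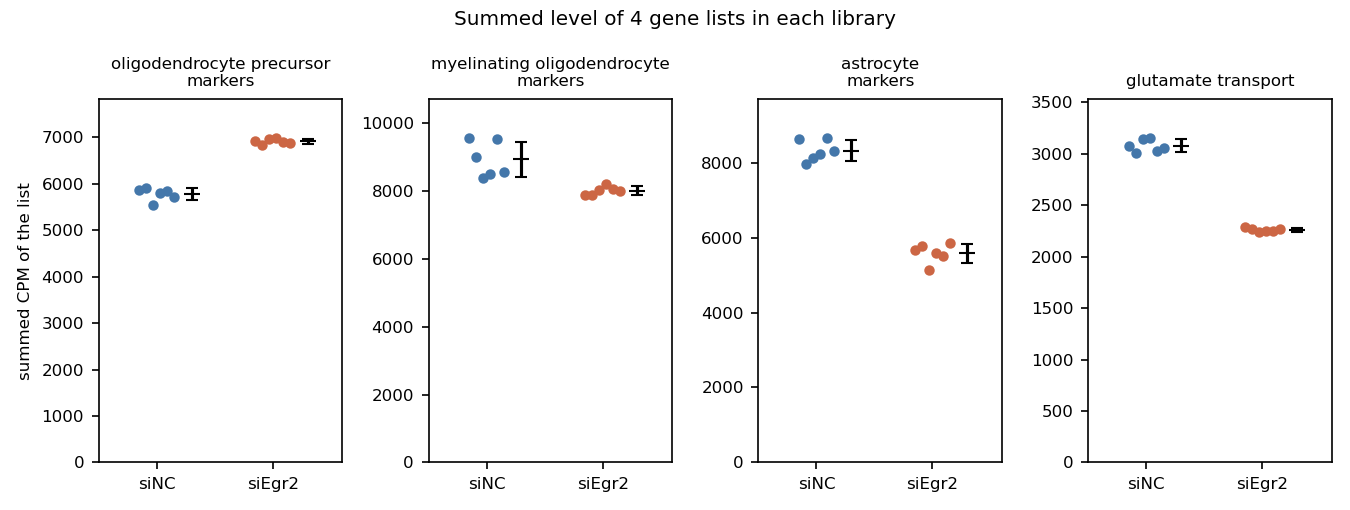
Summed level of 4 gene lists in each library, in TMM-scaled CPM on axes that start at 0, with 6 siNC and 6 siEgr2 libraries per panel and the mean ± SD in black. The precursor markers run from 5552 to 5906 in siNC and from 6842 to 6989 in siEgr2, and the astrocyte markers from 7959 to 8665 and from 5134 to 5845. With scaling by library size alone, the ranges of the precursor markers overlap.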

How the data were processed

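Bulk RNA-seq of 12 libraries of primary mouse OLs was used, 6 per group, grouped by their titles. The authors deposited raw counts per gene symbol. The submitters' processing notes name the build mm10, and the aligner, the counting program, the use of strand and the treatment of shared reads are not given in the sources used here, so overlapping genes and near copies are uncertain. Of the table, 1 blank entry with 0 counts was left out. Library totals ranged from 8034251 to 39383014 counts, and their number limits the precision of low genes.

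Tests were run in R (4.3.3) by the quasi-likelihood method of edgeR (4.0.16), after filterByExpr and TMM, robustly and with no covariate, and p values were adjusted by Benjamini-Hochberg across the 16600 genes that passed the filter. Calls needed an adjusted p below 0.05 and a log2 fold change beyond 0.5 in either direction, thresholds taken from the study's methods, which name no test. Each adjusted p comes from this test unless an alternative setting is named beside it. Intervals are 95% intervals of the log2 fold change. The procedure was tested on simulated data. The labels do not say that replicates came from separate cultures or animals, so p values measure only the spread between these libraries. No library was a copy of another: over 30 pairs within groups, the chi-square statistic per gene was 7.09 to 36.7, where sampling noise gives about 1.

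Every member could be named, with library ranges for those past the adjusted p and for the most abundant of each class. From the other lists, called genes were named (at most 6 a list), with the most abundant cell markers, and a few further genes (the editing enzymes, Mbp, the vesicular transporters) were chosen after their values were seen. Members, lists and tests were chosen with earlier results of these data known. Tmem2 and Grasp, on 2 lists, were not among the symbols of the table used here. Exon lengths and coordinates came from GENCODE M21 (GRCm38) and promoters from RefSeq (GRCm38.p6). Alternatives were other scalings, limma-voom (limma 3.58.1), DESeq2 1.42.0, other filters and thresholds, thinning to the smallest total, structural RNA left out, a replicate block and each library left out. A few genes that enter the counts and sums are not reported here by name.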

Additional observations from a re-analysis of the deposited data

Results flagged for a closer look

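In 72 groups of 6 libraries (the tested members, Egr2 and the total counts, in each treatment), 4 had a single library far from the other 5 relative to the range of the group, where chance gives about 3.6. Gria3 in siNC replicate 4 was 65.2 CPM, against 105 to 112 CPM in the other controls. Cacng4 in siNC replicate 3 was 174 CPM, against 184 to 190 CPM. Grin1 in siEgr2 replicate 4 was 4.64 CPM, against 6.92 to 7.999 CPM. The total counts of siNC replicate 6 were 39383014, against 28682946 to 32460116 in the other controls.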

How the results depend on the processing

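Gria1 and Grm3 stayed called lower in all 23 alternatives of scaling, tool, filter, block and library, with log2 fold changes from -0.81 to -0.58 and from -1.08 to -0.82. Leaving out 1 library at a time gave 2 to 3 members called lower, 0 to 0 called higher and 9 to 10 past the adjusted p. With no fold minimum, 6 members would be called higher, and with a minimum of 1 on the log2 scale, 0 would be called lower. Cacng5 was called lower with library size only (-0.67), with no filter (-0.53), and without siNC replicate 2 (-0.51), siEgr2 replicate 3 (-0.51) or siEgr2 replicate 6 (-0.51). Scaling by library size only moved the median of all genes to -0.18 and the share of called genes that were lower from 65.9% to 88.0%. It turned the sign of 13 of the 34 members, among the 9 past the adjusted p only that of Grik3, and called Egr2 lower (-0.70, adjusted p 0.0144). Relative to that median, Gria1 stood at -0.64 and Gria2 at 0.42. Without siNC replicates 3 and 6, an alternative chosen after seeing the data, 0 members were called higher, 2 lower and 9 passed the adjusted p.

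With the replicate number as a block, 0 members were called higher, 2 lower and 9 passed the adjusted p. The numbers did not pair the libraries: correlations of same-numbered deviations were -0.0209 to 0.0522, 0 of 6 over 0.1, and 2 of 6 siNC libraries correlated best with their own number. Grin2a, Grin2b, Grin2d, Grm4 and Cacng6 had few counts and wide intervals, and the parts of depth and of the spread between libraries in these were not separated.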
